A study of Mus musculus with 6 samples.

Results

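The matrix proteases and their inhibitors comprised the 108 probe sets whose symbol begins with Mmp, Timp, Adam or Adamts directly followed by a number. They represent 78 of the 22311 named genes on the array: 23 matrix metalloproteinase (Mmp) genes, 4 tissue inhibitor of metalloproteinases (Timp) genes, 32 Adam genes and 19 Adamts genes. Each gene was read from its probe set with the highest mean. RNA came from 6 mouse cultures of mesenchymal stromal cells of the bone marrow, the adherent cells that can form bone, fat and cartilage, with 1 Affymetrix array per culture. The 3 tetraploid samples were a primary culture (tetraploid I), a cell line (tetraploid II) and an artificially made tetraploid clone (tetraploid III). The 3 diploid samples were a clone (diploid I) and 2 primary cultures (diploid II and III). All cells were grown in a stem cell medium, and ploidy was read from propidium iodide staining in a flow cytometer and checked by spectral karyotyping. Strain, sex and age of the animals are not given in the labels. A clone descends from 1 cell and a line has adapted to culture, so each of these samples stands for itself, and p-values measure only the spread between these cultures.

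Matrix metalloproteinases are secreted or membrane-bound zinc enzymes that cut collagens and other matrix proteins. They are made as inactive precursors, and TIMPs block the active enzymes. On the cell surface the membrane-type enzyme MMP14 forms a complex with TIMP2 that binds and activates proMMP2, so that TIMP2 takes part in activation as well as inhibition. ADAMs are mostly membrane-bound and release the outer parts of surface proteins, and some of them have lost the catalytic site. ADAMTS enzymes are secreted and cut proteoglycans, procollagens and other matrix proteins.

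Of the 78 genes, 33 lay above the median of all probe sets (4.67 on the log2 scale, mean over 6 arrays), which is 42.3% against 50.2% of all named genes. They were all 4 Timp genes, 11 of 23 Mmp genes (Mmp7, Mmp2, Mmp14, Mmp11, Mmp19, Mmp13, Mmp16, Mmp24, Mmp23, Mmp28 and Mmp3 in order of mean), 7 of 32 Adam genes (Adam9, Adam10, Adam17, Adam15, Adam23, Adam12 and Adam19) and 11 of 19 Adamts genes (Adamts5, Adamts1, Adamts2, Adamts9, Adamts12, Adamts10, Adamts4, Adamts14, Adamts6, Adamts17 and Adamts8). Just above the median were Mmp3 at 4.91, Timp4 at 4.77 and Adamts8 at 4.73, and just below it Adamts7 at 4.61, Adam1a at 4.53 and Adamts3 at 4.49. Above each array's own median on all 6 arrays were 24 genes. Probe sets differ in how brightly they hybridise, so this order places probe sets on the arrays and does not rank transcript amounts between genes.

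The 45 genes at or below the median were at 3.51 to 4.61 in their means and 3.32 to 5.27 in single samples, and for 42 of them the 6 samples lay within 1 log2 unit. They included Mmp9, the gelatinase of osteoclasts and neutrophils, at 3.77 to 4.85. Many of the Adam genes in this group are known for expression in testis and sperm, and several of them (Adam26a and Adam26b, Adam6a and Adam6b, Adam24, Adam25, Adam34 and Adam39) are close paralogs whose probe sets may share signal. Mmp15, a membrane-type enzyme, had the widest range of this group, 1.59, reaching 5.17 in diploid III and 4.80 in tetraploid I, with the rest at 3.58 to 4.08; Mmp9 and Mmp15 are named here after their values were seen.

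In mouse, 10 Mmp genes lie next to each other on chromosome 9, and 7 of them (Mmp12, Mmp1b, Mmp1a, Mmp10, Mmp8, Mmp27 and Mmp20) stayed between 3.32 and 4.14 in every sample. The 3 others were Mmp13 and Mmp3, described with the collagenases and stromelysins, and Mmp7 at the other end of the row. Mmp7, known as an epithelial matrilysin, had 11.20 to 11.62 at 1 probe set (10583142) and 3.55 to 3.82 at the other (10583133). These means were 7.82 apart, so its level was not settled. Of the 8 genes with several probe sets, 5 others above the median also had probe sets on both sides of it: Adam15 (means 8.62 and 3.64), Adamts9 (4.43 to 7.25), Mmp24 (6.25 and 3.69), Adamts17 (3.50 to 5.86) and Adamts8 (4.73 and 3.76). For Adam15, Mmp24 and Adamts8 the place among the 33 rests on the brightest probe set. For Adamts17 another probe set, at 4.97, also lay above the median. For Adamts9 only the probe set at 4.43 lay below it.

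The sequences just before the annotated start are shown for 4 genes that the results turn on. These are Mmp14 and Timp2, whose samples ran in nearly the same order, and Mmp13 and Mmp3, members of the chromosome 9 row that varied between samples. Each is 250 bases long, printed 5′ to 3′ from RefSeq (GRCm38.p6) up to the base before the start. Capitals mark matches, on either strand, to the AP-1 motif TGANTCA, to the GC box GGGCGG, to the TATA box TATAAA and to the Runx motif ACCACA.
Mmp14, chr14:54431348-54431597, plus strand: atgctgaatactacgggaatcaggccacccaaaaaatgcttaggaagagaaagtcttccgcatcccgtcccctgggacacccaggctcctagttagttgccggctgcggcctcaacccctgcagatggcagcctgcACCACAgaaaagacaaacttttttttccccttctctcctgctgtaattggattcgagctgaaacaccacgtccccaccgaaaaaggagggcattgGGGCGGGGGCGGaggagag
Timp2, chr11:118355412-118355661, minus strand: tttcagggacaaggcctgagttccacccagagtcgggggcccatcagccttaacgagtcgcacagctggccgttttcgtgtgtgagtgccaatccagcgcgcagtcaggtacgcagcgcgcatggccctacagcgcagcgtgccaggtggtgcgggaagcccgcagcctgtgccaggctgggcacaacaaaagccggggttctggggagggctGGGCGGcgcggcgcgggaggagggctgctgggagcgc
Mmp13, chr9:7272264-7272513, plus strand: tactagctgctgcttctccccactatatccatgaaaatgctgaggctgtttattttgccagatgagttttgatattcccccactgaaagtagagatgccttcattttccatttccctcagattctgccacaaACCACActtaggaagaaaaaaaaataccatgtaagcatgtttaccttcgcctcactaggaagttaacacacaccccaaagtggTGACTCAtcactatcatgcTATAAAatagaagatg
Mmp3, chr9:7445572-7445821, plus strand: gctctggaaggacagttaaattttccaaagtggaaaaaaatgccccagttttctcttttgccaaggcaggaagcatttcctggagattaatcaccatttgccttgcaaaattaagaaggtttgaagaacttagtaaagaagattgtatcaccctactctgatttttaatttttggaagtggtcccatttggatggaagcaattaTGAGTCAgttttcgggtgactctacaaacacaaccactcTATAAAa
The windows of Mmp13 and Mmp3 each held 1 AP-1 match, beginning 35 and 46 bases before the start, and 1 TATA match, beginning 16 and 7 bases before it. Those of Mmp14 and Timp2 held neither, and held 2 and 1 GC box matches, with GC contents of 55.2% and 68% against 40.4% and 37.6% in Mmp13 and Mmp3. Windows were found for 48 of the 78 genes (53 windows, since a gene can have several starts). AP-1 matches were in 11 of these 53 windows (20.8%) and in 6.75% of all 32851 windows, TATA matches in 22.6% and 12.4%, GC boxes in 37.7% and 32.7%, and Runx matches in 20.8% and 14%. Most AP-1 matches were in the chromosome 9 row: Mmp13, Mmp12, Mmp1b, Mmp3, Mmp1a, Mmp10, Mmp20 and Mmp7. Mmp1b, Mmp1a, Mmp10 and Mmp20, which stayed low in every sample, also held both an AP-1 and a TATA match. Windows of the protease and TIMP genes above the median held AP-1 in 14.8% and TATA in 14.8%. Windows of those not above it held them in 26.9% and 30.8%. The motifs do not overlap each other in the windows shown, and a match describes the letters only.

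The array medians lay between 4.54 and 4.78, and the interquartile range was 2.75 on diploid III and 3.16 to 3.24 on the other arrays. Of 13 stromal markers, 12 were above the median, Lepr being the exception, with list means of 9.11 to 9.84 in the tetraploid and 9.10 to 9.29 in the diploid samples. Diploid III had the endothelial markers Cdh5 at 11.03 (3.70 to 3.79 elsewhere) and Flt1 at 7.32 (3.89 to 4.45 elsewhere), while the other 10 of 12 endothelial markers lay below the median in their means. Of these, Esam (4.81, against 3.38 to 3.62 elsewhere), Emcn (4.48) and Pecam1 (4.18) were also highest in diploid III, and Kdr and Tek were at 3.63. Emcn and Pecam1 lay below that array's own median (4.78), where a difference cannot be separated from background. The lower quartile of all probe sets was 4.02 on diploid III and 3.82 to 3.84 on the other arrays. The neutrophil and lymphocyte list means (3.98 and 3.99) were also highest in diploid III. The endothelial list mean was 4.89 in diploid III and 3.73 to 3.80 elsewhere. Among the stromal markers, tetraploid II had the lowest Thy1 (3.96, with 4.35 in diploid III), Eng (3.80) and Lepr (3.42) values and the highest Pdgfra (10.63), Col1a1 (13.01), Col1a2 (12.72) and Col3a1 (11.87) values of the 6 samples. Of 10 myeloid markers, 2 were above the median in their means, Cd68 and Cd14. Cd68 was at 7.97 in tetraploid II and 3.97 to 4.96 elsewhere, and Cd14 was lowest in tetraploid II (4.79) and highest in diploid III (7.46). Lyz2 was at 7.0004 in tetraploid II, while Ptprc was at 3.79, Csf1r at 3.99 and Adgre1 at 3.61 there. The mean of the myeloid list was 4.61 in tetraploid II and 3.89 to 4.38 elsewhere. None of the 6 neutrophil, 4 osteoclast and 6 lymphocyte markers lay above the median. Of 6 epithelial markers Krt19 did, with 5.18 in tetraploid III to 9.55 in tetraploid I, and the other 5 were at 3.59 to 4.61.

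The tetraploid mean was higher for Timp2 and Timp4 and lower for Timp1 and Timp3. Timp2 had 11.43, 12.08 and 11.20 in the tetraploid samples and 10.52, 10.98 and 11.11 in the diploid samples, always in the order I, II, III. Each tetraploid value lay above each diploid value, by a narrow margin between tetraploid III and diploid III. Tetraploid minus diploid, the log2 difference came to 0.70 (SE 0.28), a ratio of 1.63-fold (limma, unadjusted p = 0.0504, adjusted p = 0.876). Timp1, an inducible inhibitor with growth-promoting activity, had 11.95, 9.69 and 10.93 in the tetraploid and 11.48, 10.95 and 10.63 in the diploid samples. The highest and the lowest value of Timp1 were both tetraploid, and the log2 difference was -0.16 (SE 0.60). Timp3, the inhibitor that binds to the matrix and also blocks ADAM17 and aggrecan-cutting ADAMTS enzymes, had 10.44, 9.53 and 11.30 in the tetraploid and 9.29, 11.43 and 11.46 in the diploid samples. Its low samples were tetraploid II and diploid I, and the log2 difference was -0.30 (SE 0.75).

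Timp4 was the TIMP gene with the widest range. It had 9.25 in tetraploid II and 3.78 to 4.06 in the other 5 samples, so that it was above the median of its own array in 1 sample only. Its log2 difference of 1.76 (SE 1.53) was -0.04 without tetraploid II. In the same cell line Timp1 was at its lowest, Timp3 was lower than in each sample but diploid I, and Timp2 was at its highest. The part of the marker differences of tetraploid II, upward (Cd68, Lyz2, Pdgfra and the collagen genes) and downward (Thy1, Eng and Cd14), in the TIMP values was not tested.

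**Figure D1:**
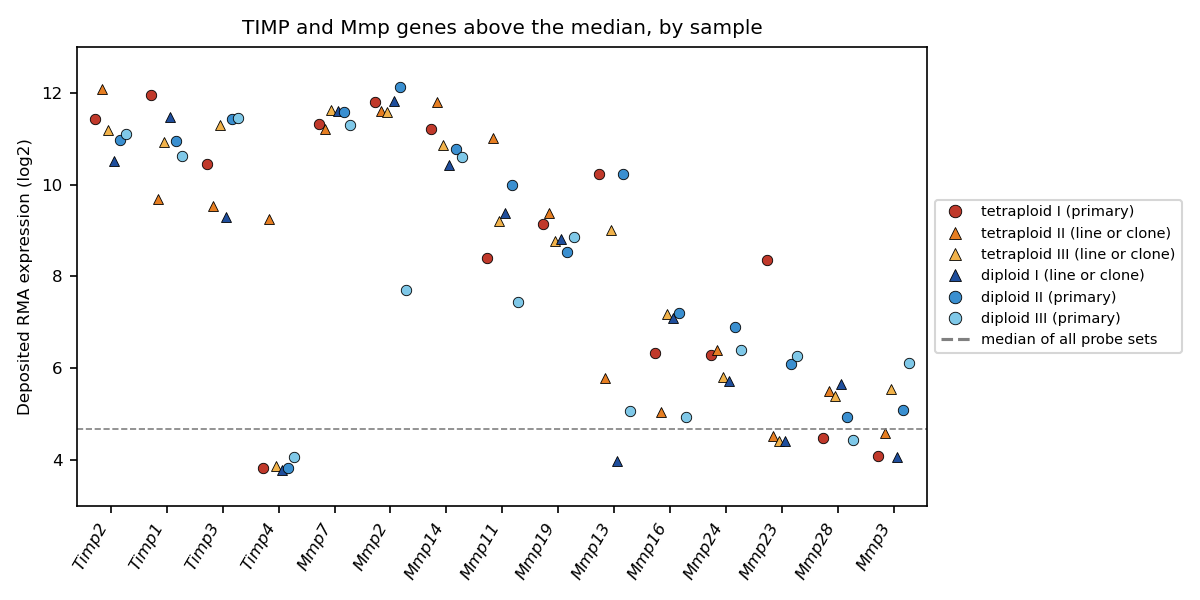
Deposited RMA values (log2, vertical axis) of the 4 Timp genes and the 11 Mmp genes above the median, with 1 point per culture, circles for primary cultures and triangles for the line and clones; the dashed line is the median of all probe sets (4.67). Timp4 stands at 9.25 in tetraploid II alone, Mmp2 is at 7.71 in diploid III alone, and Mmp13 spreads from 3.97 to 10.24.

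Mmp14 and Mmp2 belong to the same activation pathway as Timp2 and differed from each other in their patterns. Mmp14, the membrane-type collagenase, had 11.22, 11.80 and 10.86 in the tetraploid and 10.42, 10.79 and 10.60 in the diploid samples. The groups did not overlap, and the log2 difference was 0.69 (SE 0.26), a ratio of 1.61-fold (limma, unadjusted p = 0.0413, adjusted p = 0.876). From highest to lowest the samples ran tetraploid II, I, III for both Mmp14 and Timp2, followed by diploid II, III, I for Mmp14 and diploid III, II, I for Timp2. Without tetraploid II the differences of Mmp14 and Timp2 were 0.43 and 0.44 (limma, unadjusted p = 0.0677 and 0.106), and without tetraploid III 0.90 and 0.89 (limma, unadjusted p = 0.0129 and 0.0306). Mmp2, gelatinase A, had 11.81, 11.61 and 11.59 in the tetraploid and 11.83, 12.13 and 7.71 in the diploid samples. Diploid III was far below the other 5 samples, which lay between 11.59 and 12.13. The log2 difference of Mmp2 was 1.11 (SE 1.21) with diploid III and -0.31 without it. Mmp16, another membrane-type enzyme, was also lowest in diploid III (4.94) and was low in tetraploid II (5.05), against 6.34 to 7.20 in the other samples. Diploid III was the culture with Cdh5 expression and the narrower array, and the part of either in the Mmp2 value was not tested.

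Among the collagenases, Mmp13 was the 1 gene above the median, and it had the widest range of all 78 genes, 6.28. It had 10.24, 5.77 and 9.005 in the tetraploid and 3.97, 10.22 and 5.06 in the diploid samples. High and low cultures occurred in both ploidy groups: tetraploid I, tetraploid III and diploid II were high, and the other 3 low. The log2 difference by ploidy was 1.92 (SE 1.99, limma, unadjusted p = 0.374), and with 1 sample left out it lay between 0.70 (without diploid I) and 3.82 (without diploid II). Among stromelysins, Mmp11, an enzyme of stromal cells next to epithelium, had 8.41, 11.01 and 9.21 in the tetraploid and 9.38, 9.98 and 7.44 in the diploid samples. Its highest value was again in tetraploid II and its lowest in diploid III, and the groups overlapped (0.61, SE 0.93). Mmp3, stromelysin-1, had 4.08, 4.59 and 5.55 in the tetraploid and 4.06, 5.08 and 6.10 in the diploid samples, while Mmp10 stayed at 3.81 to 3.97. Mmp13 and Mmp3 did not share an order of samples: tetraploid I was highest for Mmp13 and next to lowest for Mmp3. Mmp19, which cuts basement membrane proteins, had a narrow range of 0.85 around a mean of 8.91, and Mmp24 had 1.18 around 6.25.

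For Mmp23 and Mmp28 the primary cultures did not overlap with the line and the clones. Mmp23, a membrane-anchored family member, had 8.36 in tetraploid I, 6.08 in diploid II and 6.25 in diploid III, the primary cultures, and 4.52, 4.42 and 4.40 in the line and the clones, where it was below the arrays' medians. The means were 6.90 ± 1.27 and 4.45 ± 0.06 (SD, n = 3 each). With ploidy in the model, primary minus line or clone was 2.83 (SE 0.50) on the log2 scale (limma, unadjusted p = 0.00318, adjusted p = 0.9999). It was 1.77 without tetraploid I and 3.89 without diploid I. Tetraploid minus diploid was 2.19 in the primary cultures and 0.07 in the line and clones. The first rests on tetraploid I as the 1 tetraploid primary culture, and the other on diploid I as the 1 diploid clone. Mmp28, epilysin, ran the other way at a low level, with 4.47, 4.94 and 4.43 in the primary cultures and 5.50, 5.39 and 5.66 in the line and the clones. Its difference was -0.98 (SE 0.18, limma, unadjusted p = 0.00329, adjusted p = 0.9999). Neither passed the adjusted threshold.

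Of the 7 Adam genes above the median, Adam9, Adam10, Adam17 and Adam15 had smaller ranges than Adam12, Adam19 and Adam23. The median range of all named genes above the median was 1.09, which Adam17 exceeded and Adam10 and Adam15 nearly reached. Adam9 (mean 9.97, range 0.48), Adam10 (9.45, 1.01), Adam17 (9.08, 1.23) and Adam15 (8.62, 0.97) are the broadly expressed catalytic sheddases, Adam10 releasing Notch and Adam17 the precursor of tumour necrosis factor. Adam12 and Adam19, catalytic enzymes known from muscle and heart development, had 5.60, 7.81 and 5.11 and 5.87, 7.69 and 5.58 in the tetraploid samples, and 7.64, 7.32 and 8.73 and 5.87, 5.81 and 8.43 in the diploid samples. Both were highest in diploid III with tetraploid II next, and Adam12 was lowest in tetraploid I and III. For Adam12 the log2 difference by ploidy was -1.72 (SE 0.79, limma, unadjusted p = 0.0767, adjusted p = 0.876). With 1 sample left out it lay between -2.54 (without tetraploid II) and -1.19 (without tetraploid III; limma, unadjusted p = 0.00393 and 0.204, adjusted p = 0.996 and 0.866).

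Adam23, a non-catalytic family member known as an adhesion protein of neurons, had the second widest range, 6.04. It had 6.93, 10.17 and 9.74 in the tetraploid and 7.36, 6.81 and 4.13 in the diploid samples. Tetraploid II and III stood well above the others, and diploid III lay below its array's median. The ploidy groups overlapped at tetraploid I, with a log2 difference of 2.85 (SE 1.21, limma, unadjusted p = 0.0601, adjusted p = 0.876), between 1.86 (without diploid III) and 3.85 (without tetraploid I) with 1 sample left out. By origin the primary cultures lay below the line and the clones, by -2.46 with ploidy in the model (SE 0.82, limma, unadjusted p = 0.0333, adjusted p = 0.9999), between -3.11 (without diploid II) and -1.89 (without tetraploid I, unadjusted p = 0.204) with 1 sample left out. Ploidy and origin are partly mixed in these samples, since 2 of the 3 lines and clones are tetraploid. At a low level, Adam29 had 3.71, 3.62 and 3.77 in the tetraploid and 4.01, 3.87 and 4.14 in the diploid samples (-0.31, SE 0.11, limma, unadjusted p = 0.0306, adjusted p = 0.876). All 6 of these values lie below the arrays' medians, where a difference in transcript level cannot be separated from background.

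Among the ADAMTS proteoglycanases, which cut aggrecan and versican, 5 of 7 genes were above the median. Adamts5, the main aggrecanase of mouse cartilage, had 10.60, 10.66 and 10.16 in the tetraploid and 8.67, 9.27 and 10.12 in the diploid samples. The groups did not overlap, although tetraploid III and diploid III nearly met, and the log2 difference was 1.12 (SE 0.39), a ratio of 2.17-fold (limma, unadjusted p = 0.0301, adjusted p = 0.876). With 1 sample left out it lay between 0.78 (without diploid I) and 1.502 (without diploid III). Adamts1, with 10.38, 10.60 and 9.22 in the tetraploid and 8.40, 7.82 and 10.89 in the diploid samples, was higher in each tetraploid sample than in diploid I and II and highest in diploid III. Its log2 difference was 1.03 (SE 0.88), with 1 sample left out between 0.42 (without diploid II) and 1.95 (without diploid III; limma, unadjusted p = 0.291, 0.660 and 0.0141, adjusted p = 0.876, 0.892 and 0.719). Adamts9, which also cuts versican, stood at 9.96 in diploid III, above 6.13 to 7.54 elsewhere, and 6 of its 7 probe sets were highest in diploid III. The log2 difference of Adamts9 was -0.69 (SE 1.07) with diploid III and 0.49 without it. Adamts4 had 4.30 in tetraploid II and 6.55 to 7.13 in the others, and Adamts8 stayed at 4.61 to 4.82.

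Adamts2, the enzyme that removes the amino-terminal propeptide of procollagen I, had 8.93, 9.85 and 8.51 in the tetraploid and 7.05, 6.57 and 8.90 in the diploid samples. Diploid I and II lay below every tetraploid sample, as they did for Adamts1 and Adamts5, and diploid III lay among the tetraploid samples. The log2 difference of Adamts2 was 1.59 (SE 0.69), a ratio of 3.01-fold (limma, unadjusted p = 0.0644, adjusted p = 0.876). With 1 sample left out it lay between 1.12 (without diploid II) and 2.29 (without diploid III; limma, unadjusted p = 0.179 and 0.00553, adjusted p = 0.778 and 0.719). Adamts14, another procollagen propeptidase, had 6.35, 4.77 and 6.05 in the tetraploid and 7.48, 6.50 and 5.58 in the diploid samples, with the opposite sign of difference (-0.80, SE 0.63). Adamts3, the third of this class, was below the median. Adamts12, which can cut the cartilage protein COMP, had 9.14 in tetraploid II, 7.40 in tetraploid III and 6.25 to 6.84 in the others, and its close relative Adamts7 was below the median. Of the remaining genes, Adamts6 was lowest in diploid III (4.13) and tetraploid II (5.22) and at 6.40 to 6.96 elsewhere. Adamts10, known from fibrillin microfibrils, and Adamts17 had ranges of 0.78 and 0.15.

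**Figure D2:**
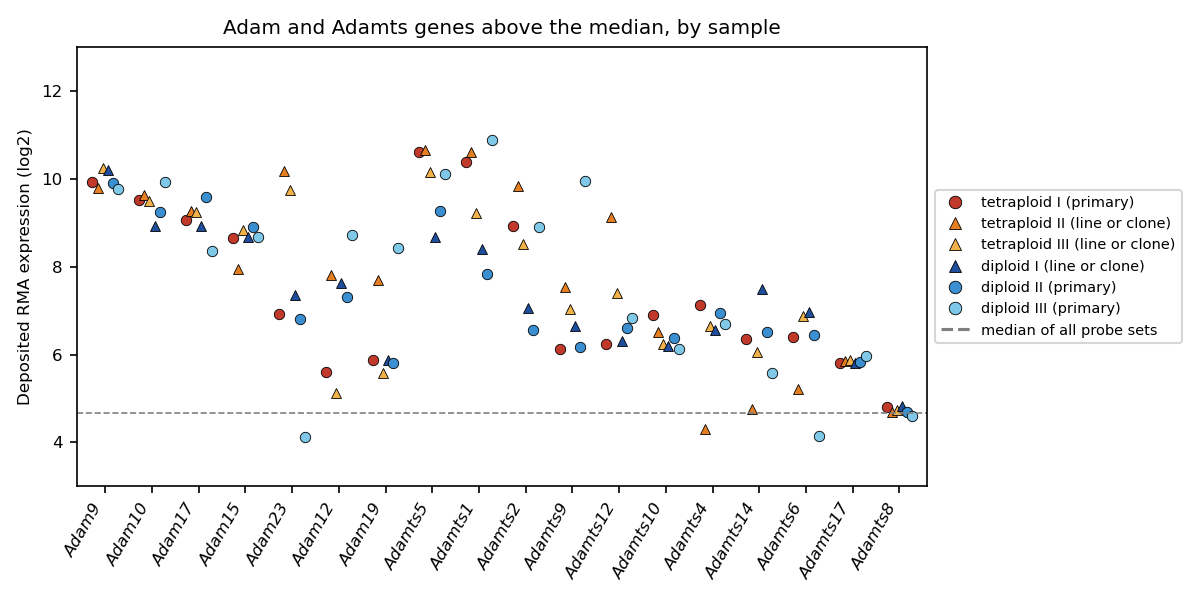
Deposited RMA values (log2, vertical axis) of the 7 Adam and the 11 Adamts genes above the median, with 1 point per culture, circles for primary cultures and triangles for the line and clones; the dashed line is the median of all probe sets. Adam9, Adam10, Adam15 and Adam17 lie in narrower bands than Adam12, Adam19 and Adam23. Adam23 spreads from 4.13 to 10.17, and the tetraploid values of Adamts5 (10.16 to 10.66) all lie above the diploid values (8.67 to 10.12).

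The genes above the median had wide ranges over the 6 cultures. A range of at least 2 log2 units over the 6 samples was found in 19 of the 33 genes (57.6%), against 17% of all named genes above the median, and the median range was 2.26 against 1.09. Of the wide genes, 6 were Mmp, 3 Timp, 3 Adam and 7 Adamts genes. Tetraploid II lay at least 1 log2 unit from the median of the other 5 samples in 16 of the 33 genes (48.5%, against 14.2% of named genes above the median), 8 upward and 8 downward. Diploid III did so in 13 (39.4% against 20.2%), 7 upward and 6 downward. The share was 24.2% against 9.75% in diploid I, 15.2% against 4.67% in tetraploid III, 15.2% against 10.9% in tetraploid I and 12.1% against 5.83% in diploid II, so that in each sample it was higher than over all such genes. Genes with wide ranges depart more often, so these shares are not a result separate from the ranges. Mmp13 alone counted as a departure in every sample. Genes farthest up in tetraploid II were Timp4, Adam23 and Adamts12, and those farthest up in diploid III were Adamts9 and Adam19, with Mmp2 and Mmp13 farthest down. Timp4 entered the 33 genes only through its value in tetraploid II, the same value that makes it wide and a departure there.

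**Figure D3:**
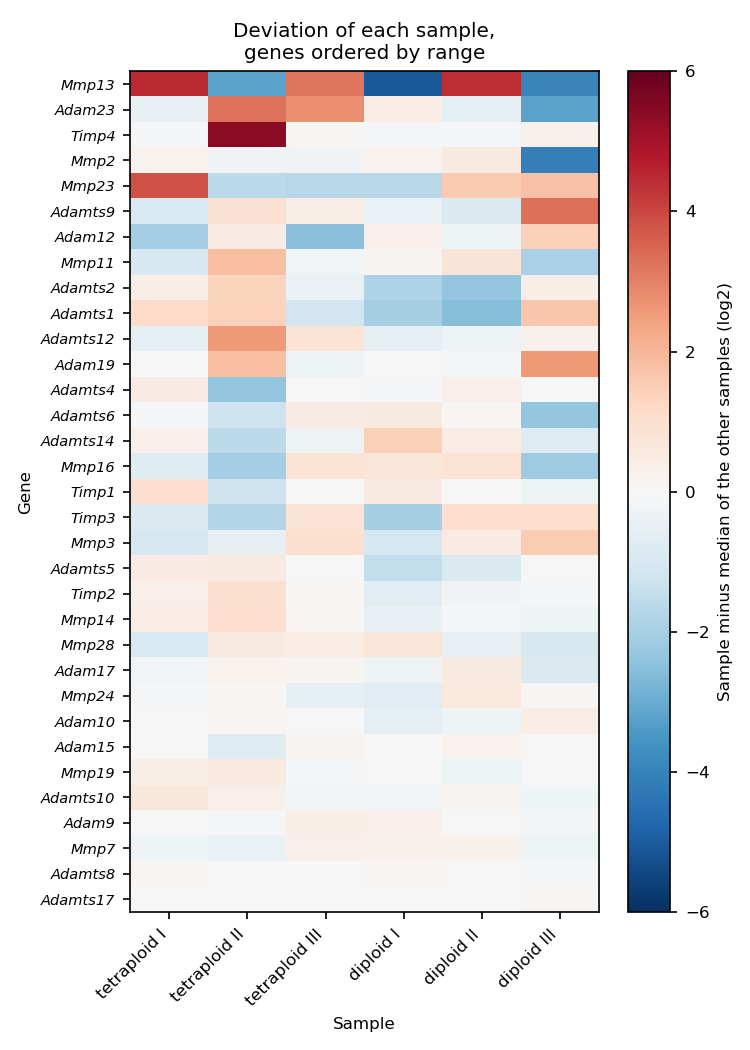
Colour gives, for each of the 33 genes above the median (rows, widest range at the top) and each culture (columns), the log2 value minus the median of the other 5 samples. Tetraploid II and diploid III carry departures of at least 1 in 16 and 13 genes, and Mmp13 departs in every column.

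By ploidy, none of the 78 genes passed the adjusted threshold of 0.05, as none of the 25917 named probe sets did (0%; limma, smallest adjusted p = 0.876). Unadjusted p-values under 0.05 were found for 1332 probe sets (1124 with an ordinary linear model). Of the 78 genes 3 (3.85%) were counted at that p, Mmp14 and Adamts5 higher and Adam29 lower in the tetraploid samples, against 5.09% of all named genes (2.95% higher and 2.14% lower). Of the 33 genes above the median 2 were counted (6.06%), against 8.96% of such genes. The ploidy groups did not overlap in 6 of 78 genes (7.69%), against 12% of all named genes. Above the median these were Mmp14, Timp2 and Adamts5, 3 of 33 (9.09%) against 13%, all with higher tetraploid values (7.7% of named genes above the median). The tetraploid mean was higher in 20 of the 33 genes (60.6%, against 52.8%), with a median log2 difference of 0.17 against 0.030. An exact permutation test of 3 against 3 samples cannot give a two-sided p under 0.1. The authors' deposited table gives folds of diploid over tetraploid, with a minus sign for lower diploid values, and these were -1.61 for Mmp14, -1.63 for Timp2 and -2.17 for Adamts5. The unadjusted p-values of that deposited table for these genes were 0.0793, 0.0936 and 0.0668.

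**Figure D4:**
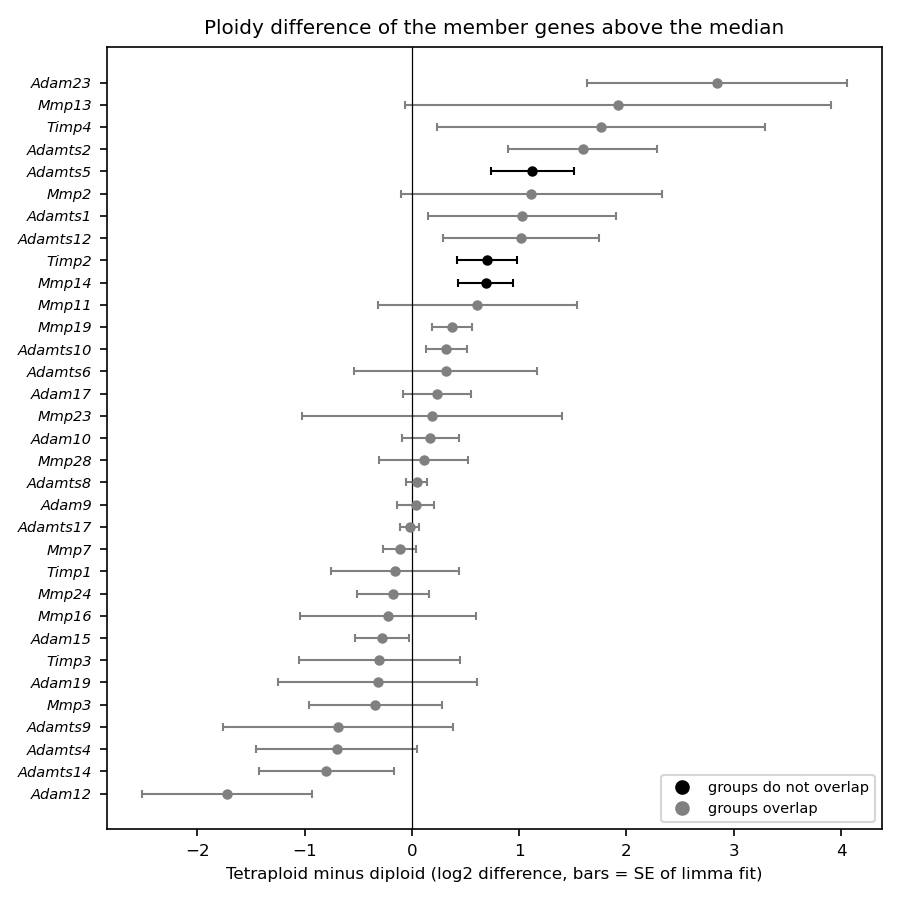
Log2 difference, tetraploid minus diploid (horizontal axis), of the 33 genes above the median, with bars for the SE of the limma fit and black points where the 3 values of each group do not overlap. The black points are Timp2 (0.70), Mmp14 (0.69) and Adamts5 (1.12), and the bars of Mmp13 and Mmp2 reach past 0.

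The 3 genes without overlap kept their direction within each origin, which the absence of overlap fixes in advance. Tetraploid I exceeded the mean of diploid II and III by 0.52 for Mmp14, 0.39 for Timp2 and 0.91 for Adamts5. The mean of tetraploid II and III exceeded diploid I by 0.91, 1.12 and 1.74. Without both tetraploid II and diploid III the differences were 0.43, 0.57 and 1.41 (limma, unadjusted p = 0.116, 0.0619 and 0.0121). By origin, 0% of the 25917 named probe sets passed the adjusted threshold (limma, smallest adjusted p = 0.9999; 874 had an unadjusted p under 0.05). Of the 78 genes 3 (3.85%) reached that p, Mmp23, Mmp28 and Adam23, against 3.43% of all named genes. The origin groups did not overlap in 4 of the 33 genes above the median (12.1% against 7.95%), these 3 and Adamts4. The mean of Mmp23 in the line and clones (4.45) and that of Mmp28 in the primary cultures (4.61) lay below that median. Both genes thus entered the 33 through the origin group in which they were higher. The 2 shares therefore cannot decide whether separation by origin was more frequent among the proteases. The difference between the ploidy differences of the origins was past the adjusted threshold in 0% of named probe sets (limma, smallest adjusted p = 0.776).

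Of genes that act on the proteases, none passed the adjusted threshold. Among 12 genes for maturation, which covers the proprotein convertases that remove propeptides, the iRhoms that carry ADAM17 and the tetraspanins that carry ADAM10, 7 had a higher and 5 a lower tetraploid mean, with 2 and 1 at an unadjusted p under 0.05 (limma) and a median of 0.023. Over all named genes 39.1% had a higher tetraploid mean, 2.95% were higher and 2.14% lower at that p, and the median was -0.048. Of these 12 genes 8 were above the median of all probe sets. Among named genes above it, 52.8% had a higher tetraploid mean, 8.96% reached that p, and the median difference was 0.030. The convertase gene Pcsk6 had 4.30, 6.64 and 6.37 in the tetraploid and 4.04, 3.98 and 4.12 in the diploid samples, a log2 difference of 1.73 (limma, unadjusted p = 0.0370). Pcsk6 was below the arrays' own medians in tetraploid I and in every diploid sample, so its difference rests mainly on tetraploid II and III. For Pcsk7 the difference was 0.56 and for the iRhom gene Rhbdf2 -0.50 (limma, unadjusted p = 0.0205 and 0.0222). The ploidy groups did not overlap for Pcsk6, Pcsk7 and Tspan17, higher in the tetraploid samples, and for Rhbdf2 and Tspan33, lower there. Tspan33 stayed at 3.54 to 4.15, below the arrays' medians, where a difference cannot be separated from background. Over all named genes 12% had no overlap.

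Among 9 genes of other inhibitors and of clearance 4 had a higher and 5 a lower tetraploid mean, with 0 at an unadjusted p under 0.05. Of 11 other matrix proteases, 5 were higher and 6 lower, with 0 at that p. The 5 Adamtsl genes, which encode related proteins without a protease domain, had 3 higher and 2 lower means, with 0 at that p. Of 10 transcription factor genes known to act on Mmp promoters, 1 was higher (Runx2, named after its value was seen) and 9 were lower, with a median of -0.47. Of these 10 genes 9 were above the median of all probe sets, where 52.8% of named genes had a higher tetraploid mean. Ets1 was the 1 at an unadjusted p under 0.05, with 6.17 to 6.67 in the tetraploid and 6.96 to 7.22 in the diploid samples (limma, unadjusted p = 0.00761, adjusted p = 0.876).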

How the data were processed

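Biotin-labelled total RNA of 6 cultures was hybridised to Affymetrix arrays, per the labels. The authors' deposited values are on the log2 scale, 1 per probe set and array. RMA and Partek are the tools in the submitters' processing notes, with no version given; RMA subtracts background, equalises the arrays' distributions and combines probes. Per the file headers, the deposited comparison table holds, for each probe set, a signed linear ratio of diploid over tetraploid with its p-value. Groups came from the titles and origins from the descriptions. Ploidy was tested with limma 3.58.1 (R 4.3.3) on all 25917 named probe sets, as tetraploid minus diploid with no covariate, and origin in a model with ploidy, with Benjamini-Hochberg adjustment. Each gene was read at its brightest probe set. Values in every sample were given for Timp genes and for genes above the median with an unadjusted p under 0.05, groups that do not overlap or a range of at least 2. Members and lists were chosen with earlier results of these data known. The fit was tested on simulated data. Alternatives changed centring, variance model, array weights, origin, filters and samples. Columns matching no label, 6 in number, were not used. ADAMs were not divided by catalytic sequence, since no protein table was used here. The number of arrays limits precision.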

Additional observations from a re-analysis of the deposited data

How the results depend on the processing

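Of 3 genes at an unadjusted p under 0.05 by ploidy, the count was 6 after centring, 7 with a variance trend, 1 with an ordinary linear model, 8 with array weights, 1 with origin as a covariate and 0 at a p under 0.01. It ranged from 0 to 6 when 1 sample was left out, with 0 without diploid I and 6 without tetraploid III or diploid III. The named probe sets past the adjusted threshold then numbered 0 to 1, none of them a protease or TIMP gene. The array weight of diploid III was 0.19, against 0.99 to 1.89 for the other arrays, so the weighted fit leaned little on diploid III. With array weights the log2 difference turned to 0.0145 for Timp3, -0.0899 for Mmp2, -0.16 for Mmp11 and 0.26 for Adamts9, and with origin as a covariate to 0.0587 for Timp3. Without tetraploid II and diploid III, a choice made after seeing the data, it was 0.23 for Timp1, 0.51 for Timp3, -0.28 for Mmp2, -0.87 for Mmp11 and 0.17 for Adamts9. With 1 sample left out it ranged from -0.71 to 0.42 for Timp1, -1.02 to 0.14 for Timp3, -0.0393 to 2.67 for Timp4, -0.31 to 1.90 for Mmp2, -0.14 to 1.18 for Mmp11 and -1.40 to 0.49 for Adamts9. The lowest values of Mmp2 and Mmp11 and the highest of Adamts9 were those without diploid III. The cause was not tested. Over 18 alternatives each, Mmp14, Timp2 and Adamts5 had adjusted p-values (limma) of 0.487 to 0.996, 0.556 to 0.996 and 0.515 to 0.996; with samples left out, their direction is fixed by groups that do not overlap. Same-numbered samples correlated at -0.12, -0.14 and -0.34 in their deviations from the group means, so the numbers were not taken as pairs; with the replicate number as a block the count was 2. Arrays of 3 against 3 cultures limit what can be detected.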
